A study of Mus musculus with 2 samples.

Results

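Follicle-scored epithelial cells made up 335 of the 6889 cells in the series. Control gave 119 of them, from 2541 cells, and MOF cKO gave 216, from 4348 cells. They were chosen by their own accessibility, so every difference between them and other epithelial cells describes cells selected on that readout. A cell with at least 5000 transposition cuts was taken as epithelial where its score for 9 epithelial genes (Krt5, Krt14, Trp63, Epcam, Cdh1, Perp, Dsp, Sfn and Esrp1) exceeded its score for 8 fibroblast genes (Col1a1, Col1a2, Col3a1, Pdgfra, Twist2, Lum, Dpt and Prrx1) by more than 1 on the log2 scale. A score is the share of a cell's cuts that lie in peaks within 2 kb of the gene bodies, divided by the mean share in its library. Of the epithelial cells, 1190 in Control and 2169 in MOF cKO, the 10% with the highest score for Lhx2, Edar, Shh, Sox9, Wnt10b and Dkk4 was then taken in each library.

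Single-cell ATAC-seq, which counts the sites where the Tn5 transposase cuts open chromatin, was done on back skin of embryos at E16.5 of mixed C57Bl/6J and CD-1 background, with 1 library for each genotype. In MOF cKO, floxed alleles of Mof (Kat8), the acetyltransferase that acts on lysine 16 of histone H4, were deleted by Krt14-Cre, which is active in epithelial cells. The labels call the other library Control and do not say which alleles it carried. In both libraries GFP-positive (K14-H2BGFP) and GFP-negative live cells were sorted and, per the labels, recombined 5 to 1; the methods text gives other proportions, so the share of epithelial cells is not read here. The methods text describes 1 pair of samples, with littermate controls throughout the study, and does not say how many embryos were in a sample. Differences between genotypes have no replicate check.

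Hair follicles form where the embryonic epidermis thickens into placodes that grow down as hair germs. Wnt signalling through LEF1 and TCF factors and Eda signalling through its receptor EDAR specify the placode, SHH drives the downgrowth, and SOX9 and LHX2 mark follicle progenitors. DKK4 is a secreted Wnt inhibitor made in placodes, and WNT10B is a placode ligand.

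The score had no gap at the chosen limit, and which cells were taken moved when cells were thinned. With each cell thinned to 5000 cuts before scoring, 33 of 103 cells chosen in Control and 53 of 186 in MOF cKO were among those taken without thinning. Thinning leaves few of the cuts a score rests on, so this overlap does not tell depth from counting noise. The score pools the cuts of its 6 genes, so a gene with many cuts weighs more. With the mean of the 6 single-gene scores instead, 58 of 119 cells chosen in Control and 83 of 216 in MOF cKO were among those taken. In Control the lowest score taken was 1.90 and the highest left out 1.90, with a median of 1.19 over all epithelial cells. In MOF cKO the 2 values at the limit were 1.70 and 1.70, with a median of 1.09. Within 10% of the limit lay 42 chosen cells and 73 others in Control, and 84 and 136 in MOF cKO. The follicle-scored cells are thus the upper end of a continuous range. Their score rested on a median of 45 cuts per cell in Control and 28 in MOF cKO, against 22 and 17 in other epithelial cells. The fewest score cuts in a follicle-scored cell were 3 in each library. Median depth was 74719 cuts in follicle-scored cells and 72518 in others in Control, and 69229 and 84630 in MOF cKO. The lower quartile of depth was 40154.5 cuts against 49566 in Control, and 44496.5 against 57651 in MOF cKO. Shallow cells were thus more common among the follicle-scored cells of both libraries. Of the 21 barcode sequences found in both libraries, 2 belonged to follicle-scored cells, both of them Control. Levels are given as CPM, the cuts in regions of a gene window that both libraries share, per 1000000 cuts in such regions. Over Kat8 itself the level in follicle-scored cells was 67.9 CPM in Control and 58.2 CPM in MOF cKO, and the gene window includes sequence outside the floxed part, so this does not check the deletion.

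The distal regions with the highest ratios in both libraries are shown here with their sequence, since motif counts further on refer to such regions. Distal regions lie over 2 kb from any annotated start site, and regions that the selection itself used were left out. The first 5 lines are the regions with the highest ratio of follicle-scored to other epithelial cells, ranked by the smaller of the 2 libraries' ratios. The last line is the region ranked highest in the same way between 2 and 100 kb of Lhx2, outside the windows used for the choice. Each line gives the central 300 bases, plus strand of GRCm38, and capitals mark letters of the 6 motifs described further on.
Tshz2 intron, chr2:169843628-169843927: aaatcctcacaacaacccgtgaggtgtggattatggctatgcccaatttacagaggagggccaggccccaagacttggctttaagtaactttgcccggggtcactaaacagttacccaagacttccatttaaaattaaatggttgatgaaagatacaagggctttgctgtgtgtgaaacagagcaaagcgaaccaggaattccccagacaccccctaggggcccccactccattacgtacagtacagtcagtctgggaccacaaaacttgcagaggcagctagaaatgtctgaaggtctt
Region nearest Gm15217, chr14:46077165-46077464: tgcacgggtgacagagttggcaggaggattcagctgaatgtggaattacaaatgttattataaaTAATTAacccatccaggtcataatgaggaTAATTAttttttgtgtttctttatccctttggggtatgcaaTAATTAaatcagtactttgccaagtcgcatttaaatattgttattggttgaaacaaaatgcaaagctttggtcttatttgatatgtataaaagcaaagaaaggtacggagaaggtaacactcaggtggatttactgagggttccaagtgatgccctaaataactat
Region nearest Ttc39b, chr4:83145836-83146135: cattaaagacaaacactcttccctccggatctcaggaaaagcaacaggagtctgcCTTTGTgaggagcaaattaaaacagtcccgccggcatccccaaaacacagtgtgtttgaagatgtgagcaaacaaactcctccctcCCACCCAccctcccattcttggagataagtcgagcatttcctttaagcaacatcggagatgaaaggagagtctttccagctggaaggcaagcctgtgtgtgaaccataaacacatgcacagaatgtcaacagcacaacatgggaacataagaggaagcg
Region nearest Magi1, chr6:93328053-93328352: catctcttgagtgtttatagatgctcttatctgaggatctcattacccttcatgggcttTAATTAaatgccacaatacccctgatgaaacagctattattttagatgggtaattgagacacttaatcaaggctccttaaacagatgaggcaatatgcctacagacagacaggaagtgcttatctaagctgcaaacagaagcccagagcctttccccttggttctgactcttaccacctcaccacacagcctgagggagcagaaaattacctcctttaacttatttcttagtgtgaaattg
Region nearest Adgrl2, chr3:149344759-149345058: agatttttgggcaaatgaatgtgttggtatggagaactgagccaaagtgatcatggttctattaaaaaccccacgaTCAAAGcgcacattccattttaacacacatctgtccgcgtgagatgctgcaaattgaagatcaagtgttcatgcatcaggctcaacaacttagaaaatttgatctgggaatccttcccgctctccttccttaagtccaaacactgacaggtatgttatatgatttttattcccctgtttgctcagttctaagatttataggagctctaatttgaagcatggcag
Region nearest Lhx2, chr2:38315589-38315888: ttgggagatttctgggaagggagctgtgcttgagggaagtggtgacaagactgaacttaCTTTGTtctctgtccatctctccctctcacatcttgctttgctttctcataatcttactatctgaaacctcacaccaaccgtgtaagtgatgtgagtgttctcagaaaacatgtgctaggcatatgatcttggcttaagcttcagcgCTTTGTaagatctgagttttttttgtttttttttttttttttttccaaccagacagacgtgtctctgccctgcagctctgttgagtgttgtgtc

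In an intron of Tshz2, a zinc finger gene, the region at chr2:169843322-169844232 had 29.3 CPM in follicle-scored cells and 7.67 CPM in other epithelial cells of Control, a log2 ratio of 1.93 (95% counting interval 1.63 to 2.24). In MOF cKO it had 4.39 and 1.28 CPM, a log2 ratio of 1.78 (1.15 to 2.37). The other 4 regions were intergenic, 301.518 kb from Gm15217, 73.864 kb from Ttc39b, 346.752 kb from Magi1 and 353.86 kb from Adgrl2, the nearest protein-coding genes. Their log2 ratios lay between 1.59 and 1.76 in Control and between 1.63 and 1.86 in MOF cKO. In all 5 regions the level of follicle-scored cells was higher in Control than in MOF cKO: from 9.35 to 29.3 CPM against 3.54 to 4.39 CPM. That of other epithelial cells was higher too, from 3.11 to 9.05 CPM against 1.02 to 1.32 CPM. The minimum of 200 epithelial cuts in each library counted the follicle-scored cells. In MOF cKO these gave 50 to 62 cuts per region, and without them most of the 5 regions would have missed the minimum. Those regions thus passed it through the cells where they were high. The ranking itself chose these 5 regions, so their ratios are a description. The Gm15217 line holds TAATTA, homeodomain letters, 3 times and the Magi1 line 1 time, while the Tshz2 line holds none of the 6 motifs. The Lhx2 line holds SOX letters 2 times.

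The 6 genes of the selection are given as a description, since they chose the cells. Edar had 292 CPM in follicle-scored cells and 152 CPM in other epithelial cells of Control, and 212 and 112 CPM in MOF cKO. Its level was the highest of the 6, so Edar weighed most in the score. Lhx2 had 108 and 50.3 CPM in Control and 66.5 and 34.8 CPM in MOF cKO. Shh had 54.6 and 21.6 CPM in Control and 31.1 and 15.3 CPM in MOF cKO, the highest log2 ratio of the 5 well-covered genes in each library, 1.34 and 1.03. Sox9 had 49.5 and 28.0 CPM in Control and 54.5 and 30.3 CPM in MOF cKO, and Wnt10b 68.9 and 52.2 CPM in Control and 67.6 and 38.0 CPM in MOF cKO. Dkk4 was covered by only 24 cuts in follicle-scored cells of Control and 26 in those of MOF cKO. Lhx2 and Sox9 are not particular to epithelium here: in cells on the fibroblast side of the same score, Lhx2 had 72.3 CPM in Control and 61.3 CPM in MOF cKO, and Sox9 37.8 and 48.9 CPM.

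Each gene was then left out of the score in turn, the top 10% was chosen with the other 5, and the left-out gene was read in it. Shh, the ligand that drives follicle downgrowth, had 42.9 CPM in the cells so chosen and 22.9 CPM in the rest of Control, a log2 ratio of 0.90 (0.66 to 1.14). In MOF cKO its log2 ratio was 0.16 (-0.11 to 0.42). Lhx2 was higher in both libraries, by 0.32 (0.14 to 0.50) in Control and 0.27 (0.09 to 0.43) in MOF cKO. Edar was higher in Control, by 0.28 (0.17 to 0.39), and not detectably so in MOF cKO, at 0.03 (-0.07 to 0.14). For Sox9 and Wnt10b the interval included 0 in both libraries: 0.23 and 0.13 for Sox9, -0.17 and 0.17 for Wnt10b. Dkk4 rested on 24 and 14 cuts, with log2 ratios of 1.04 and -0.24 and intervals that include 0. The interval thus lay above 0 for Shh, Edar and Lhx2 in Control and for Lhx2 in MOF cKO. The difference between the libraries has no test, since there is 1 of each.

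Among 30 placode and hair germ genes, 26 in Control and 25 in MOF cKO had a log2 ratio above 0, against 51.9% and 54.1% of the 15919 genes compared. Their median ratio was 0.26 in Control and 0.14 in MOF cKO, and the median of all genes was 0.01 in each. The 8 dermal condensate genes, of the dermal cells under a placode, had medians of 0.27 and 0.09, so a rise particular to epithelial follicle genes is not shown. The counting interval lay above 0 for 21 of the 30 genes in Control and 15 in MOF cKO, where 16% and 9.88% of all genes did so. It lay below 0 for 0 and 1 of them, against 12.5% and 7.14% of all genes. At 1.5-fold or more, 5 of the 30 were higher in Control and 0 in MOF cKO, where 1.98% and 0.132% of all genes were. Calls at 1.5-fold also depend on the number of follicle-scored cells, 119 in Control and 216 in MOF cKO.

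Sp5, a transcription factor gene that Wnt signalling switches on, had 23.2 CPM in follicle-scored cells and 12.5 CPM in others of Control, a log2 ratio of 0.89 (0.56 to 1.20). In MOF cKO it had 9.55 and 10.0 CPM, -0.07 (-0.45 to 0.29). Foxi3, a placode transcription factor gene, had 45.4 and 27.9 CPM in Control (0.70) and 30 and 23.0 CPM in MOF cKO (0.38). Trps1, another transcriptional regulator needed for hair, had 131 and 84.2 CPM in Control (0.64) and 98.6 and 93.2 CPM in MOF cKO (0.08). The interval in MOF cKO lay above 0 for Foxi3 and included it for Sp5 and Trps1. The lowest ratios in Control were those of Edaradd, which carries the EDAR signal on, at -0.13, and Sostdc1, an inhibitor of BMP and Wnt signals, at -0.08, both with intervals that include 0. In MOF cKO these 2 genes had ratios of 0.15 and 0.10. In 21 of the 30 genes the ratio was higher in Control than in MOF cKO, as it was in 7859 of all 15919 genes.

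**Figure D1:**
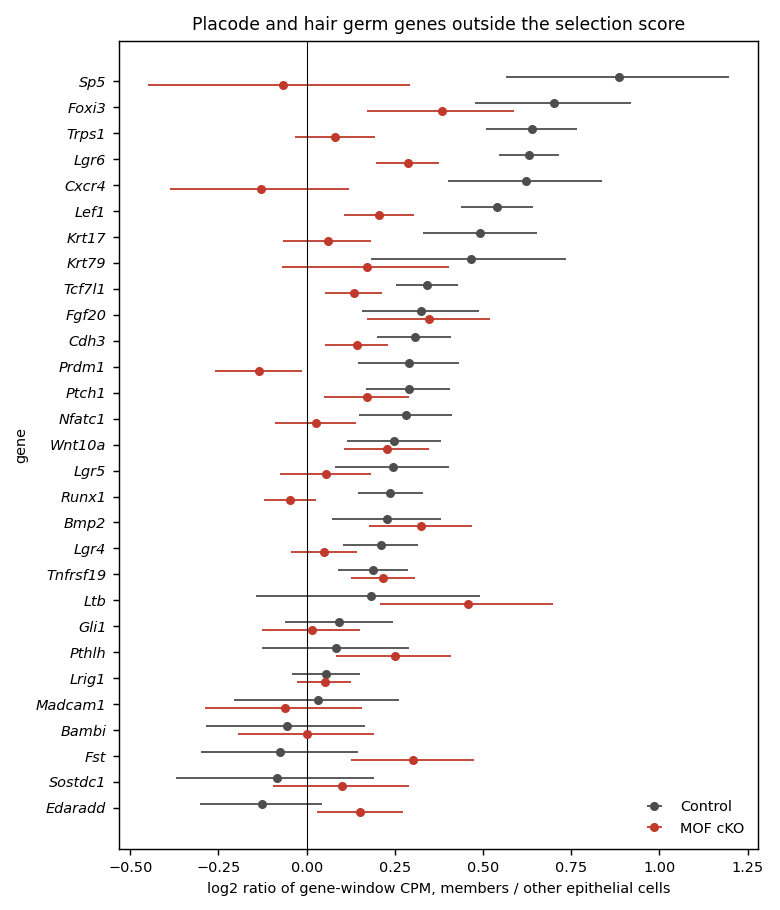
Log2 ratio of accessibility (CPM over the gene window) of follicle-scored cells to other epithelial cells for placode and hair germ genes, Control in grey and MOF cKO in red, with 95% counting intervals as bars. Most grey points lie to the right of 0, led by Sp5 at 0.89, while the red points reach 0.46 at most.

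Follicle transcription factor genes had a median log2 ratio of 0.26 in Control, with 21 of 25 above 0 and 4 at 1.5-fold or more, and of 0.17 in MOF cKO, with 19 above 0 and 0 at 1.5-fold. Of all genes 51.9% and 54.1% were above 0 and 1.98% and 0.132% at 1.5-fold, so a count of 0 in MOF cKO is near the share of all genes. Gata6, a factor gene of the upper follicle, had ratios of 0.65 and 0.35, and Msx1, a homeobox gene of the placode, 0.64 and 0.11. At the low end were Gata3, a factor gene of the inner root sheath, at -0.18 and 0.07, and Ovol1, a differentiation factor gene, at -0.21 and 0.19.

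Wnt pathway genes had a median of 0.19 in Control, with 39 of 46 above 0 and 4 at 1.5-fold, and 0.11 in MOF cKO, with 42 above 0 and 0 at 1.5-fold, where 51.9% and 54.1% of all genes were above 0 and 1.98% and 0.132% at 1.5-fold. Beside Sp5, Rspo1, which encodes a secreted enhancer of Wnt signalling, had 14.8 and 8.15 CPM in Control (0.86) and 7.92 and 6.98 CPM in MOF cKO (0.18). Nkd1, an inhibitor gene that the pathway itself switches on, had 63.9 and 38.6 CPM in Control (0.73) and 31.1 and 25.8 CPM in MOF cKO (0.27). Lef1, which encodes the nuclear effector of the pathway, had 205 and 141 CPM in Control (0.54) and 127 and 110 CPM in MOF cKO (0.21). The intervals of Nkd1 and Lef1 lay above 0 in both libraries. Lef1, Lgr4, Lgr5 and Lgr6 are also in the placode list. Other lists share genes too, so the lists are not separate evidence. The receptor gene Fzd10 and the ligand-processing gene Porcn had the lowest ratios in Control, -0.27 and -0.20, with intervals that include 0.

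Hedgehog pathway genes had lower medians than Wnt genes in Control and higher in MOF cKO. The median was 0.12 in Control, with 12 of 16 above 0, and 0.17 in MOF cKO, with 14 above 0, and 0 were at 1.5-fold in either, near the 1.98% and 0.132% of all genes, of which 51.9% and 54.1% were above 0. Ptch1, a receptor gene that is also a target of the pathway, had 150 and 123 CPM in Control (0.29) and 88.7 and 78.7 CPM in MOF cKO (0.17). Cdon, a SHH co-receptor gene, had ratios of 0.28 and 0.23. Both had intervals above 0 in both libraries. Scube2, whose product releases the ligand, and Gpr161, a negative regulator, had the lowest ratios in Control, -0.21 and -0.17, and ratios of 0.30 and 0.24 in MOF cKO.

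Eda and NF-kB pathway genes, with Edar itself left out, had medians of 0.04 and 0.03, near that of all genes. Fgf20, a placode ligand gene downstream of EDAR, had 78.0 and 62.3 CPM in Control (0.32) and 43.2 and 34.0 CPM in MOF cKO (0.35), and Nfkb1 was lowest in Control at -0.44. BMP pathway genes had medians of 0.15 and 0.08, led in Control by the BMP antagonist gene Chrd (0.66 and 0.07) and the inhibitory Smad7 (0.57 and 0.06). Ligand genes Bmp4 (0.41 and 0.13) and Bmp7 (0.35 and 0.16) followed. Of 22 hair shaft keratin and related genes, 20 were in the annotation and 10 had enough cuts for a ratio (500 over epithelial cells in each library), and their medians were 0.14 and 0.09. In Control 7 of the 10 were above 0 (51.9% of all genes), with 2 counting intervals above 0 and 2 below (16% and 12.5% of all genes), and in MOF cKO 8 (54.1% of all genes), with 0 intervals on either side. Krt33a was highest in Control at 0.67 and stood at 0.15 in MOF cKO, and the lowest in Control were Krt25 at -0.72 (-1.35 to -0.14) and Krt86 at -0.39 (-0.77 to -0.04), with 0.02 and 0.13 in MOF cKO. Neighbouring keratin genes may share regions.

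Suprabasal genes, which epidermal cells use as they leave the basal layer, had medians on opposite sides of 0 in the 2 libraries. All 17 measured had a lower ratio in Control than in MOF cKO, while 7859 of all 15919 genes had a higher one. The suprabasal median was -0.18 in Control and 0.09 in MOF cKO. In Control 8 of the 17 had an interval below 0, as did 12.5% of all genes, and 0 above it, and 3 were lower by 1.5-fold or more, as were 3.2% of all genes. In MOF cKO 6 had an interval above 0, as did 9.88% of all genes, and 0 below it, and 0 were 1.5-fold lower, as were 0.283% of all genes. Dsc1, a desmosomal cadherin gene, had 10.6 and 25.2 CPM in Control, a log2 ratio of -1.25 (-1.70 to -0.82), and 14.6 and 17.5 CPM in MOF cKO, -0.26 (-0.57 to 0.03). Ivl, the gene of the cornified envelope protein involucrin, had 3.08 and 6.30 CPM in Control (-1.03) and 8.70 and 8.83 CPM in MOF cKO (-0.02). Spink5, a protease inhibitor gene, had 10.0 and 19.7 CPM in Control (-0.97) and 38.2 and 38.7 CPM in MOF cKO (-0.02). With each cell thinned to 5000 cuts before scoring, which leaves few cuts per score, the Control median was 0.02, so its direction turned. With thinning to 40000 cuts it was -0.18. The early suprabasal keratin genes Krt1 and Krt10 had ratios of 0.10 and 0.17 in Control and 0.31 in MOF cKO for each. Basal genes, in contrast, had a median of 0.12 in each library, with Cxcl14 (0.53 and 0.34) and Itgb4 (0.35 and 0.12) highest in Control and Col17a1 lowest at -0.67, against 0.05 in MOF cKO. Krt15, a keratin gene of basal and follicle stem cells, had the highest basal ratio in MOF cKO, 0.57, against 0.26 in Control.

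**Figure D2:**
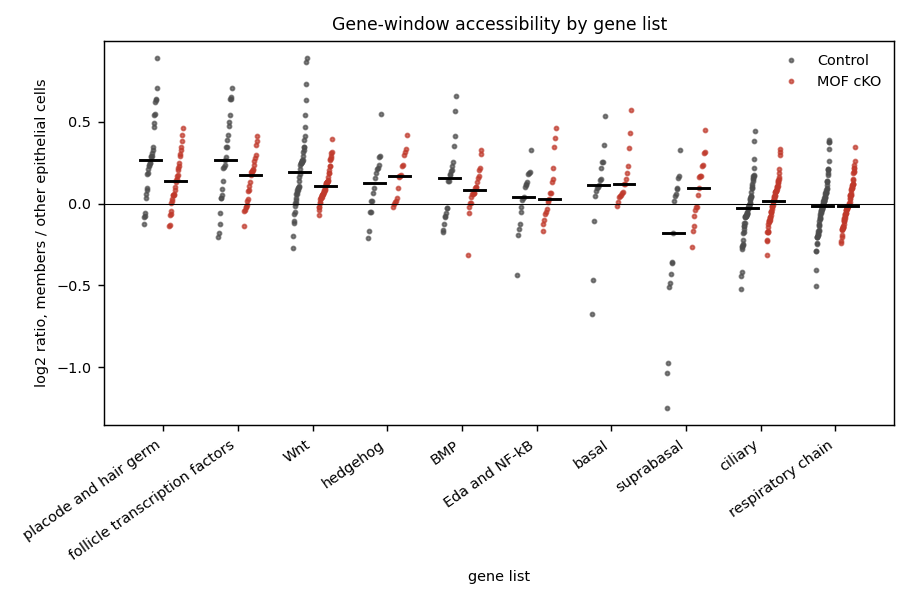
Log2 ratio of follicle-scored to other epithelial cells for every measured gene of 10 lists, each point a gene, Control in grey and MOF cKO in red, with black bars at the medians. Some genes are in several lists. Of 30 placode genes 26 lie above 0 in Control and 25 in MOF cKO, of 25 follicle factor genes 21 and 19, and suprabasal genes have a median of -0.18 in Control and 0.09 in MOF cKO.

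Markers of other cell types were read in the same cells, and their part in these ratios was not tested. Over the summed windows of 8 immune genes, follicle-scored cells had 114 CPM and other epithelial cells 123 CPM in Control, and 103 and 126 CPM in MOF cKO. By this sum the follicle-scored cells were not the higher side, but most of it is 1 gene. Cd52 alone had 90.5 and 91.5 CPM in Control and 68.3 and 71.0 CPM in MOF cKO. On the fibroblast side Cd52 had 21.7 and 20.8 CPM, so the sum is a poor measure of immune content. Single cells ranged from 0 to 601 CPM among the follicle-scored cells of Control and from 0 to 1128 CPM among those of MOF cKO. Of 8 immune genes 4 had enough cuts for a ratio. In either library 0 of these 4 were above 0, where 51.9% and 54.1% of all genes were. Csf1r, the macrophage receptor gene, had 4.68 and 7.62 CPM in Control and 7.85 and 15.7 CPM in MOF cKO. For the 10 further fibroblast genes, summed levels were 275 and 240 CPM in Control and 246 and 249.1 CPM in MOF cKO, against 634 and 616 CPM on the fibroblast side. The summed log2 ratio of these genes was 0.19 (0.11 to 0.28) in Control and -0.02 (-0.09 to 0.06) in MOF cKO. Of the 9 measured, Pdgfrb was highest in Control at 0.60 and -0.24 in MOF cKO. Among the 8 dermal condensate genes Foxd1 was highest in Control, at 0.75, and stood at 0.07 in MOF cKO. Of these 8 genes, 5 were above 0 in each library, where 51.9% and 54.1% of all genes were. Their summed level was 155 CPM in follicle-scored and 139.7 CPM in other epithelial cells of Control, against 371 CPM on the fibroblast side. Dermal condensate, endothelial, melanocyte, Schwann, mural and Merkel lists had summed log2 ratios between -0.12 and 0.21 in either library, and periderm and simple epithelium genes 0.29 in Control and 0.09 in MOF cKO. Single genes weigh heavily in some of these sums too. In follicle-scored cells of Control, Erbb3 gave 192 of the 324 CPM of Schwann genes and Cspg4 153 of the 298 CPM of mural genes. Doublet scores had a median of 0.36 in both kinds of epithelial cell in Control, and of 0.28 in follicle-scored and 0.32 in other cells in MOF cKO.

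Across all genes, 315 were at least 1.5-fold higher in follicle-scored cells of Control and 21 in those of MOF cKO, and 4 in both (0.0251% of genes), among them Tspyl3 and Fam50b. These 4 are 1.27% of the Control genes and 19.05% of the MOF cKO genes. Of all genes, 0.132% and 1.98% were called in the other library. The counts of the 2 libraries are not on one scale. Control has 119 follicle-scored cells and MOF cKO 216, and these counts rose where fewer cells were taken. With the twentieth of highest score, 59 cells of Control gave 608 genes and 108 cells of MOF cKO gave 121. Fam50b had 39.2 and 23.7 CPM (0.73) and 29.4 and 19.4 CPM (0.60), and Tspyl3 15.1 and 9.63 CPM (0.65) and 5.94 and 3.82 CPM (0.64). Lower by 1.5-fold were 509 genes in Control and 45 in MOF cKO, and 9 in both (0.0565%), among them Adgrf2, Csf1r, D330045A20Rik, Samsn1, Gabpb2, Zbp1, Ucn2 and Trim34a. Csf1r and Samsn1 are genes of blood-derived cells, and Zbp1 and Trim34a act in innate antiviral responses. Of the epithelial cells, 62 in Control and 132 in MOF cKO had more immune than epithelial signal, and 5 of these in each library were follicle-scored. In a setting chosen after seeing the data, cells with an immune score over 2 times the epithelial one were left out. Then 9 genes were lower in both libraries and 6 higher, and 27 were higher in MOF cKO. The immune list median was -0.21 in Control and -0.04 in MOF cKO over 3 genes, against -0.31 and -0.45 over 4 genes without this step. The placode median was 0.26 and 0.11. The cause of these ratios was not tested. Samsn1 had 6.27 and 11.7 CPM in Control and 14.6 and 22.6 CPM in MOF cKO.

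With epithelial cells ordered by the score into 10 groups, the share of cuts in placode and hair germ windows went from 0.26 below the epithelial average in the lowest group (log2) to 0.16 above it in the ninth and 0.27 in the follicle-scored group of Control. In MOF cKO it was 0.21 below the average in the lowest group and then between -0.09 and 0.06 up to the ninth, and 0.11 in the follicle-scored group. Immune windows stood at 0.97 in the lowest group of MOF cKO and at 0.27 in that of Control. The curve of MOF cKO was thus between -0.03 and 0.03 from the third group to the eighth, where that of Control climbed from -0.14 to 0.06.

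**Figure D3:**
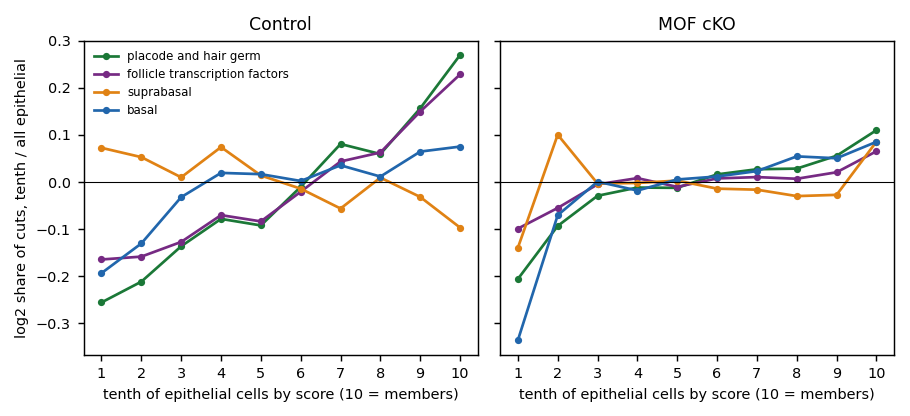
Log2 share of cuts in 4 sets of gene windows, each of 10 groups of epithelial cells against all epithelial cells of its library, ordered by the follicle score, group 10 being the follicle-scored cells. Placode and follicle factor windows are lowest at group 1 and highest at group 10 in Control, at 0.27 and 0.23, and reach 0.11 and 0.07 in MOF cKO.

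Where the cells sat among all epithelial cells was read from clusters built without any region within 500 kb of a gene of the selection and without X and Y. In Control, 21.4% of the 20 nearest neighbours of a follicle-scored cell were follicle-scored, against 7.34% for other epithelial cells. In MOF cKO the shares were 13.2% and 6.93%. Of 8 clusters in Control, clusters 3 and 5 held 46 and 31 of the 119 follicle-scored cells, which were 27.7% (21.1 to 35.2, exact binomial) and 26.3% (18.6 to 35.2) of their cells. In cluster 5, 7 of the 30 placode and hair germ genes were at least 1.5-fold above the rest, where 4.43% of all 15919 genes were, and in cluster 3, 3 of them, where 1.41% of all genes were. In cluster 4, where 8.54% of cells were follicle-scored, it was 4 of the 30 and 2.34% of all genes. Cluster 7, with 9 of 17 suprabasal genes (2.17% of all genes) at least 1.5-fold up, and cluster 8, with 3 of 4 immune genes (4.52% of all genes) up, held 0 of 87 and 0 of 33 cells, with exact 95% upper limits of 4.15% and 10.6%. Of 9 clusters in MOF cKO, cluster 9 had the highest share, 14 of 54 cells (25.9%, 14.96 to 39.7), with 7 of 30 placode genes up against 2.98% of all genes, but held 6.48% of the follicle-scored cells. The larger groups were in cluster 3, with 58 cells (17.3%), and cluster 1, with 43 (9.91%). Clusters 7 and 8 also had 4 of 30 placode genes up each, where 43.6% and 14.9% of all genes were, with placode medians of -1.37 and 0.10. Cluster 7, where 4 of 4 immune genes were up, held 1 of 101 cells, and cluster 8 held 11 of 69. Clusters 4 and 5, with 5 and 2 of 17 suprabasal genes up (1.23% and 0.967% of all genes), held 16 of 327 and 19 of 247. Most follicle-scored cells of MOF cKO thus lay in clusters with 0 placode genes up, so the cells are called here by their score and not by a cell type. Since the clusters were made from the same cells, no test is given.

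**Figure D4:**
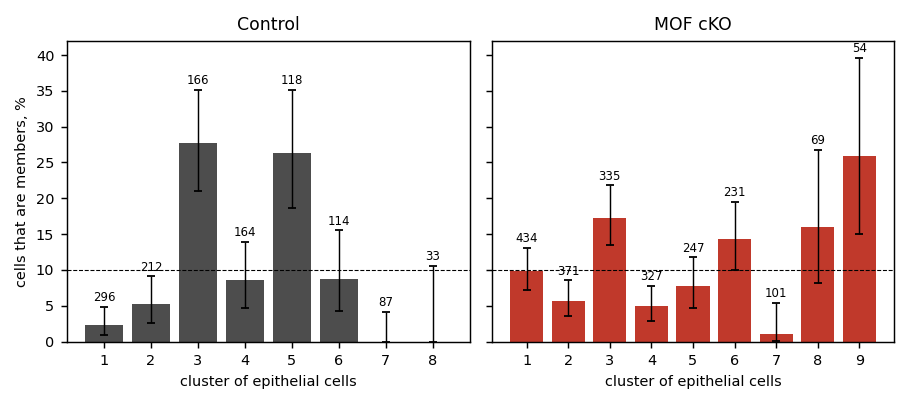
Percent of each cluster's cells that are follicle-scored, Control left and MOF cKO right, with exact 95% binomial intervals, the cell number above each bar and the overall 10% as a dashed line. Clusters 3 and 5 of Control stand at 27.7% and 26.3%, and cluster 9 of MOF cKO at 25.9%.

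Of 53904 distal regions compared, 6286 (11.7%) were at least 1.5-fold higher in follicle-scored cells of Control and 3620 (6.72%) in those of MOF cKO, and 1043 (1.93%) in both. At least 1.5-fold lower were 14471 (26.8%) in Control, more than were higher, and 2652 (4.92%) in MOF cKO, fewer than were higher. With 119 follicle-scored cells in Control and 216 in MOF cKO, the counts of the 2 libraries are not on one scale. The 1043 were 16.6% of the Control regions and 28.8% of the MOF cKO regions, where 6.72% and 11.7% of all regions were called. Summed, the 1043 regions had 13052 CPM in follicle-scored and 6344 CPM in other epithelial cells of Control, and 4857 and 2777 CPM in MOF cKO, which restates how they were chosen. By cluster, with the follicle-scored cells still among them, clusters 3 and 5 of Control had 11341 and 12922 CPM, and the other 6 from 3046 to 7514 CPM. In MOF cKO cluster 9 had 8006 CPM and the other 8 from 779 to 4217 CPM. On the fibroblast side the regions had 2429 CPM in Control and 2015 CPM in MOF cKO. Since the regions were chosen on the follicle-scored cells within these clusters, this order follows in part from the choice.

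To read one library with the choice made in the other, the 500 distal regions with the highest ratio in Control were taken. In MOF cKO 72.2% of them had a ratio above 0, against 55.7% of all distal regions, with a median of 0.31 against 0.05. The 500 highest of MOF cKO had a median of 0.45 in Control against -0.15 for all regions, and 71.6% were above 0 against 40.0%. The 500 lowest in Control, with a median of -2.86, had a median of -0.12 in MOF cKO, where 33.2% were above 0. The 500 lowest in MOF cKO, with a median of -1.19, had a median of -0.17 in Control and 40.8% above 0, close to all regions. Both lowest sets rest on few cuts. In the follicle-scored cells of their own library they had medians of 4 cuts in Control and 14 in MOF cKO. All distal regions compared had medians of 39 and 72.

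These regions differed in the motifs they hold. Letters of 6 motifs were searched on both strands in the central 500 bases: CTTTGA for TCF/LEF, ACAAAG for SOX, TAATTA for homeodomain factors, TGGGTGG for GLI, TGANTCA for AP-1 and AACCNGTT for grainyhead-like factors. TCF/LEF and SOX letters share CTTTG when read on opposite strands, and a match to either can lie beside the other. TAATTA was present in 14.2% of all distal regions compared, in 31.2% (28.4 to 34.1, exact binomial) of the 1043 higher in both libraries, in 41.2% of the 500 highest in Control and in 27.6% of the 500 highest in MOF cKO. It was in 12.8% and 11.6% of the 500 lowest. TCF/LEF letters were in 33.6% of all, 44.4% of those higher in both, 40.8% and 44.2% of the highest. AP-1 letters were in 28.5% of all, in 11.4% (9.54 to 13.5) of those higher in both and in 8.0% (5.78 to 10.7) of the highest in MOF cKO. In the highest of Control they were in 24.8% (21.1 to 28.8), an interval that includes the share of all regions. They were in 59.4% of the lowest in Control and 24.0% of the lowest in MOF cKO. With a median of 4 cuts in follicle-scored cells, the ranking of the lowest in Control is coarse. SOX, GLI and grainyhead-like letters stayed within 3 percentage points of their share in all regions in every one of these sets.

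The same was read over all regions with no choice by ratio. In Control 19.7% of the 7677 regions with TAATTA and 10.3% of those without were at least 1.5-fold higher in follicle-scored cells, and in MOF cKO 10.3% and 6.12%. With regions split into 3 groups by GC content, the shares in Control were 17.9% and 8.74% at the lowest GC, 20.2% and 9.81% in the middle, and 24.6% and 12.1% at the highest. Regions with AP-1 letters were 1.5-fold lower in 39.6% in Control, against 21.8% without, and in 4.78% and 4.98% in MOF cKO. They were 1.5-fold higher in 9.12% against 12.7% in Control, and in 2.41% against 8.43% in MOF cKO. Regions with TCF/LEF letters were 1.5-fold higher in 12.5% in Control, against 11.2% without, and in 8.29% and 5.92% in MOF cKO. Their median ratio in Control was -0.15 with and without these letters. A match of letters does not show that a factor binds there.

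**Figure D5:**
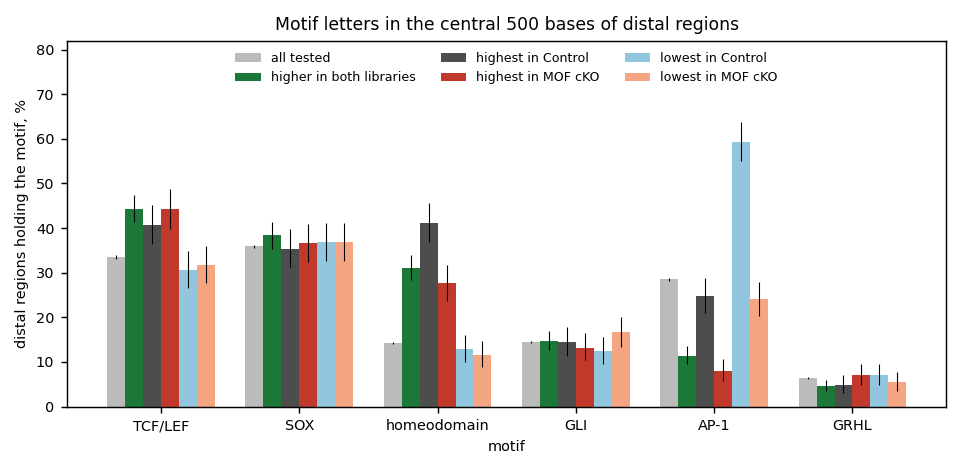
Percent of distal regions that hold each of 6 motifs in their central 500 bases, for all regions compared (grey), those higher in both libraries, and the 500 highest and lowest of each library, with exact 95% binomial intervals. Homeodomain letters reach 41.2% in the highest of Control against 14.2% of all regions, and AP-1 letters 59.4% in the lowest of Control against 28.5%.

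Around the genes of the selection, regions 2 to 100 kb away were not used by the choice. Near Lhx2, 12 of 15 distal regions compared were above 0 in Control and 11 in MOF cKO, and 8 and 5 were at least 1.5-fold higher, where 40.0% and 55.7% of all distal regions were above 0. Near Edar 6 and 5 of 6 were above 0, near Shh 4 and 3 of 6, near Sox9 4 and 3 of 5, near Wnt10b 9 and 8 of 17 and near Dkk4 2 and 4 of 8. At 1.5-fold there were 2 near Edar in Control and 1 in MOF cKO, and 1 in each library near each of the other 4 genes, where 11.7% and 6.72% of all distal regions were. Summed over all 31 regions near Lhx2, the log2 ratio was 0.60 (0.49 to 0.71) in Control and 0.23 (0.13 to 0.34) in MOF cKO. Near Edar the sums over 11 regions gave 0.61 (0.47 to 0.74) and 0.36 (0.21 to 0.51). The Lhx2 region printed above, 23.078 kb from the gene, had 9.13 and 3.48 CPM in Control (1.39) and 2.83 and 1.64 CPM in MOF cKO (0.79). Near Sox9 the sums gave 0.28 (0.08 to 0.47) and -0.06 (-0.22 to 0.09), and near Wnt10b 0.18 and 0.07. Near Shh they did not differ detectably, at 0.02 (-0.15 to 0.20) and 0.08 (-0.08 to 0.24), although the gene's own window had the highest ratio. Near Dkk4 they gave 0.17 and 0.02, while the median of the 8 regions compared was -0.30 in Control and 0.05 in MOF cKO.

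Promoter regions lie within 500 bp of the start of a protein-coding gene, and their share is read over cuts in shared regions. In follicle-scored cells these held 8765864 of 9173737 cuts in Control and 14133658 of 15807529 in MOF cKO, so unequal parts are left out. Of the cuts in shared regions, promoters took 38.9% in follicle-scored cells of Control and 29.8% in those of MOF cKO. The difference was -9.13 percentage points (-9.21 to -9.05, counting error). Other epithelial cells had 37.7% and 28.8%, a difference of -8.83 points, and cells on the fibroblast side, where Krt14-Cre is not known to act, 42.2% and 41.7%, a difference of -0.528 points. Follicle-scored cells were 1.23 points above other epithelial cells in Control and 0.921 points above in MOF cKO. The size of this gap moved with the choice of cells, from 0.545 to 1.65 points in Control and from 0.115 to 2.04 in MOF cKO. Per cell the medians were 38.1% and 28.8%, with quartiles of 35.1% and 41.8% in Control and 26.7% and 32.8% in MOF cKO. The ranges between quartiles did not overlap, and cells of 1 library are not replicates.

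The level of gene windows was also lower in MOF cKO, with a median log2 change of -0.27 over the 12055 genes compared in follicle-scored cells and -0.28 in other epithelial cells, and values here stand beside that shift. At least 1.5-fold lower were 1470 genes (12.2%) and higher 769 (6.38%) in follicle-scored cells, and 884 (7.33%) and 580 (4.81%) in other epithelial cells. Follicle-scored cells numbered 119 in Control and 216 in MOF cKO, and other epithelial cells 1071 and 1953. Fewer cells give more counting noise and so more calls, so these counts and their overlaps are not on one scale. They do not show a larger change in follicle-scored cells. With size factors from the median of ratios, 238 were lower and 1403 higher, scaled to the cuts of each library's full peak set 2554 and 610, per cell 3668 and 513, and at promoters 1581 and 39. Of the 1470, 494 (33.6%) were also 1.5-fold lower in other epithelial cells, and of the 769, 462 (60.1%) also higher. Between the 2 kinds of cell the change differed by 1.5-fold or more for 265 genes (2.198%).

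Placode and hair germ genes had a median change of -0.36 in follicle-scored cells, where all genes had -0.27. Of 29, 7 were at least 1.5-fold lower and 0 higher, where 12.2% and 6.38% of all genes were. In other epithelial cells their median was -0.28, as for all genes, with 4 lower (7.33% of all genes). These counts too rest on unlike numbers of cells. For each gene, the gap in this change between the 2 kinds of cell equals the gap between the libraries in its ratio. It thus restates the choice of cells. Sp5, with 203 and 135 cuts, was below the minimum of 500 and is not among the 29. Lgr6, a receptor gene of R-spondins, stood at -0.91 and -0.57. Cxcr4, a chemokine receptor gene, stood at -1.20 and -0.45, with 403 and 283 cuts, and passed the minimum through Control, where it was high. Suprabasal genes had a median change of -0.11 in follicle-scored cells and -0.25 in others over the 10 of 17 that passed the minimum. Of these, Spink5 (88 cuts in Control and 540 in MOF cKO) and Tgm3 (129 and 415) passed through MOF cKO, where they were high. The highest of all were Mmp3, a matrix metalloproteinase gene, with 1.71 CPM in Control and 34.7 CPM in MOF cKO (4.34), Gm17268 (4.28), F13a1, a clotting factor subunit gene (3.40), Il1rn, the gene of the interleukin-1 receptor antagonist (3.12), and Il24, a cytokine gene (3.099). These 5 were also higher in other epithelial cells, by 2.59, 3.24, 2.39, 1.48 and 2.40. In follicle-scored cells these 5 had 15 to 51 cuts in Control and 491 to 716 in MOF cKO, so they passed the minimum of 500 cuts over both libraries through MOF cKO, where they were high, and Mmp3 and Gm17268 were not among the 15919 genes with enough epithelial cuts in each library. The lowest were Gm12830 (-1.80), Eef1akmt2 (-1.56), C330021F23Rik (-1.53), Gnb1l (-1.53) and Clcf1, a cytokine gene (-1.51), with -0.52, -1.01, -1.32, -1.18 and -0.51 in other epithelial cells. All but Gnb1l had 326 to 344 cuts in Control and 159 to 184 in MOF cKO, and likewise passed the minimum through the library where they were high.

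At promoters, genes of the primary cilium had a median change of -0.42 in follicle-scored cells, with 51 of 55 lower, and of -0.50 in other epithelial cells, with 55 lower. Genes of the respiratory chain had a median of -0.43, with 67 of 69 lower, and of -0.48 in others, with 69 lower. Over all 12016 promoters the medians were -0.41 and -0.42, and 10840 of all promoters were lower in follicle-scored cells and 11072 in other epithelial cells. Within a library the medians of their promoters against other epithelial cells were 0.00 and 0.03 for ciliary genes and -0.01 and 0.03 for respiratory chain genes, where all promoters had 0.04 and 0.05. Hedgehog pathway promoters stood at 0.16 in each library, and Wnt promoters at 0.23 and 0.20.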

How the data were processed

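The deposited matrices hold unnormalized counts of Tn5 cuts for every peak and cell barcode. Per the file headers the authors used cellranger-atac 2.0.0, per the labels the build was mm10, and each library has its own peak and cell calls. Depth was 169641002 cuts in 2541 barcodes in Control and 324310197 in 4348 in MOF cKO. Overlapping peaks were merged, and merged regions with a peak of each library were kept (214119, of which 18975 were promoter and 165639 distal), with genes of GENCODE vM21 and sequence of GRCm38 from RefSeq. A gene's level was the cuts in shared regions within 2 kb of its body per 1000000 cuts in shared regions (CPM). Genes needed 500 epithelial cuts in each library, regions 200, and genes 500 cuts over the follicle-scored cells for the genotype comparison; genes sharing a region with one used by the selection were left out.

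With 1 library per genotype no test was possible. Intervals are exact, at 95%. Those of levels, shares of cuts and ratios are on fragments (cuts divided by 2), and cover counting error only, since cells are not replicates. Those of clusters are on cells and those of motifs on regions. They treat each cell or region as an independent draw, although cells and most region sets were chosen by rank. A side with 0 cuts was set to 3. Levels of different genes were not scaled for length and were not compared. The ratio script was tested on simulated counts. The cells, gene lists and comparisons were chosen with earlier results of these data known. Named genes were the selection genes, those with the 3 highest and 2 lowest Control ratios in a list, the 10 highest and lowest past 1.5-fold in both libraries, the 5 highest and lowest by genotype, and the 5 top distal regions; others were named after their values were seen. Some genes and a sequence that these rules select are not reported here. Clusters used 50000 regions, 30 vectors without those correlated at 0.5 or more with depth, 20 neighbours and Leiden resolution 1; doublet scores, the share of simulated pairs among 50 neighbours, removed no cell. Python 3.11.15, numpy 2.4.6, scipy 1.17.1, scikit-learn 1.9.0, leidenalg 0.10.2 and pysam 0.24.0 were used. Alternatives changed the thinning, score, share taken, thresholds, doublets and scaling.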

Additional observations from a re-analysis of the deposited data

Results flagged for a closer look

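The suprabasal genes stood on opposite sides of 0 in the 2 libraries. Their median log2 ratio of follicle-scored to other epithelial cells was -0.18 in Control and 0.095 in MOF cKO. With each cell thinned to 5000 cuts before scoring, the medians were 0.02 and 0.05, both above 0. With thinning to 40000 cuts they were -0.18 and 0.04. The difference was not tested, since there is 1 library of each genotype, and its cause was not tested.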

How the results depend on the processing

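No paired analysis was possible because each genotype has 1 library. Values were recomputed under other settings; with median-of-ratios factors the balance of lower and higher genes between genotypes turned, and the cause of a change was not tested. The promoter share of follicle-scored minus other epithelial cells, 1.23 points in Control and 0.921 in MOF cKO, was 0.545 and 0.682 after thinning each cell to 5000 cuts, 0.938 and 0.232 with the mean of single-gene scores, 1.14 and 0.859 with a minimum of 10000 cuts per cell, 0.911 and 0.623 with an epithelial threshold of 0, and 1.65 and 1.22 without the 10% of cells with the highest doublet scores. It was 2.04 in MOF cKO for the twentieth and 0.115 for the fifth with the highest score. The genotype difference of -9.13 points was -8.49, -9.51, -8.96 and -8.97 under thinning, the mean score, the threshold of 0 and without doublets, and -8.08 and -9.72 for the twentieth and the fifth.

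Counts of genes and regions moved with how many cells were taken. Genes 1.5-fold higher in Control, 315, became 608 in the twentieth, 193 in the fifth, 112 after thinning, 180 with a gene minimum of 1000 cuts and 22 at 2-fold. Those in MOF cKO, 21, became 121, 6, 6, 8 and 0 under the same settings, 5 with the mean score, 33 without doublets and 50 with promoter regions. Genes higher in both, 4, became 30, 2, 2, 1 and 0, and 1 with the threshold of 0, 7 without doublets and 12 with promoters. Genes lower in both, 9, became 57, 1, 1, 2 and 0, and 1 with the mean score. Distal regions higher in both, 1043, became 1864, 608, 226, 411 with the mean score, 362 with a region minimum of 400 cuts and 124 at 2-fold. Genes lower in MOF cKO, 1470, became 484 in the twentieth, 641 with the gene minimum, 85 at 2-fold, 2554 with cuts in all own peaks as the total, 238 with median-of-ratios factors and 3668 per cell. Genes higher, 769, became 354, 402, 284, 1403 with median-of-ratios factors and 39 with promoters.

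Chosen after seeing the data were a thinning to 40000 cuts and leaving out cells with an immune score over 2 times the epithelial one. The first gave 1.29 points in Control, 200 genes in Control and 638 distal regions; the second gave 1.33, 1.64 and -8.95 points. After thinning to 5000 cuts 33 of the Control and 53 of the MOF cKO cells were chosen again, and after thinning to 40000 cuts 62 and 88. The placode list median stayed above 0 in both libraries under each setting, from 0.20 to 0.28 in Control and from 0.05 to 0.17 in MOF cKO. The suprabasal median was 0.02 in Control after thinning to 5000 cuts, and from -0.31 to -0.03 there in the others.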
